A study of Mus musculus with 2 samples.

Results

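The 6 genes described here make up the angiopoietin, Tie and apelin axis of the vessel wall: the ligand gene Angpt2, the receptor genes Tek and Tie1, the receptor phosphatase gene Ptprb, the peptide hormone gene Apln and its receptor gene Aplnr. They were chosen by symbol, each matched 1 row of the 31053 genes in both libraries, and the rule uses no measured value. Wild-type C57Bl/6 males, 8 weeks old, gave the ileum, the end of the small intestine, from which endothelial cells were sorted. The gates took CD31+ cells that lacked EpCAM and CD45, both with and without podoplanin (PDPN), the surface protein used to gate lymphatic endothelium. A pair of droplet 3' single-cell RNA libraries with the same labels formed 1 group (n = 2), with no treated or mutant animals. What was compared is therefore 1 class of endothelial cell with another within the same libraries. Nothing in the labels ties a library to an animal. The p-values below rest on how far class differences varied between these 2 libraries, which may be technical, and on spread shared across genes.

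Angiopoietins are secreted ligands of the receptor tyrosine kinase TIE2, which Tek encodes. Angiopoietin-1, made mainly by mural cells around the vessel, activates TIE2 and keeps endothelium quiescent, while angiopoietin-2, stored in and released by endothelial cells, can act as an agonist or an antagonist depending on context. TIE1 is an orphan receptor that forms complexes with TIE2, and VE-PTP, the product of Ptprb, is an endothelial phosphatase that removes phosphate from TIE2 and associates with VE-cadherin. Apelin is a peptide ligand of the G protein-coupled receptor APJ, encoded by Aplnr, and both are known from sprouting vessels, where Apln and Angpt2 mark the leading tip cells. In lymphatic vessels angiopoietin-2 is required for normal growth and remodelling.

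The cells were placed in 5 classes by raw unique molecular identifiers (UMIs, 1 for each captured transcript molecule). Cells with at least 5 UMIs of Mmrn1, Lyve1 and Prox1 were lymphatic, and cells with at least 5 of Flt1, Cd34, Plvap and Esam were blood endothelial. Of the blood cells, those with at least 4 UMIs of Ackr1, Selp and Madcam1 were venous and those with at least 3 of Sema3g, Fbln5 and Stmn2 arterial. The rest were capillary, Plvap-high where Plvap exceeded the sum of Gpihbp1 and Aqp1, and Gpihbp1/Aqp1 capillary otherwise. The classes held 78 and 976 lymphatic, 70 and 267 venous, 147 and 883 arterial, 361 and 2362 Plvap-high and 231 and 1084 Gpihbp1/Aqp1 cells in libraries 1 and 2, and each class is a range cut from a few genes rather than a cell type. Library 2 held more cells and so more UMIs in all, 26645476 against 3806199 in library 1, at a like depth per cell, and gives the narrower counting intervals; the 2 libraries shared 2 cell barcodes.

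Most of the genes checked that the class rule did not use followed the names. Ccl21a, a lymphatic chemokine, had 6312 and 5881 UMIs in each 1000000 of the class total (CPM) in lymphatic cells and at most 12.96 CPM in any blood class. Vwf, von Willebrand factor, was highest in venous cells, at 1365 and 1182 CPM, and Gja5, an arterial gap junction gene, in arterial cells, at 174 and 114 CPM. Ephb4, a receptor gene used as a venous marker, did not mark the venous class and was highest in lymphatic cells, at 378 and 293 CPM. Rgcc, a capillary gene, was highest in Gpihbp1/Aqp1 cells, at 910 and 1090.5 CPM, and in Plvap-high cells it had 344 and 380 CPM. Of the cells that reached the venous threshold, 28.6% and 39.0% also reached the arterial one, and these 28 and 171 cells were left out. Markers of other cell types were uneven between the libraries: in library 2 the Gpihbp1/Aqp1 class held 1471 CPM of the haemoglobin gene Hbb-bs and the Plvap-high class 460 CPM of the epithelial gene Reg3b, both at 0 CPM in the same class of library 1.

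The genes lie apart in the mouse genome, all as protein-coding genes of the GENCODE vM21 annotation on GRCm38, the assembly also called mm10. Angpt2 lies at chr8:18690263-18741562 on the minus strand, Tek at chr4:94739289-94874976 on the plus strand and Tie1 on the same chromosome at chr4:118471191-118490061 on the minus strand. Ptprb lies at chr10:116275523-116389535 on the plus strand, Apln at chrX:48025146-48034853 on the minus strand and Aplnr at chr2:85136225-85139923 on the plus strand. Promoter sequences of 3 of the 6 genes, from 250 bases before to 50 bases after the RefSeq start, were at hand on GRCm38.p6. The start used for Tie1 lies inside the Tie1 span given above, so most of its window, chr4:118489800-118490099, lies within that span. The Apln and Tek windows match the starts of the spans given above. They are shown because no promoter sequence of the other genes was at hand, and no link between their letters and the gene levels was tested. Capitals mark matches on either strand to 2 motifs of endothelial transcription factors. These are AGGAAG (other strand CTTCCT), an extended form of the ETS motif, and the GATA motif AGATAA (other strand TTATCT). The shorter ETS core GGAA (other strand TTCC) was not marked or counted.
Apln promoter, chrX:48034804-48035103, minus strand: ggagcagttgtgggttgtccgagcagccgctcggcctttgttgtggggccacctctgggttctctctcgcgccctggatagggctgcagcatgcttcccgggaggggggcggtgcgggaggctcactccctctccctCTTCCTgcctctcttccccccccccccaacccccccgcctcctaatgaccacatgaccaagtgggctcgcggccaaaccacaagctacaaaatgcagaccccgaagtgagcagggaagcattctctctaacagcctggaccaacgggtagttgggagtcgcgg
Tek promoter, chr4:94739039-94739338, plus strand: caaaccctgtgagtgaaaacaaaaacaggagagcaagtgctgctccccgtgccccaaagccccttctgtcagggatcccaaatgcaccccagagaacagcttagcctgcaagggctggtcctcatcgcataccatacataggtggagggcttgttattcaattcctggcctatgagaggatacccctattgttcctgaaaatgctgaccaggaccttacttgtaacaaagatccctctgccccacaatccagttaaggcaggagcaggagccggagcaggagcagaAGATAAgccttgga
Tie1 promoter, chr4:118489800-118490099, minus strand: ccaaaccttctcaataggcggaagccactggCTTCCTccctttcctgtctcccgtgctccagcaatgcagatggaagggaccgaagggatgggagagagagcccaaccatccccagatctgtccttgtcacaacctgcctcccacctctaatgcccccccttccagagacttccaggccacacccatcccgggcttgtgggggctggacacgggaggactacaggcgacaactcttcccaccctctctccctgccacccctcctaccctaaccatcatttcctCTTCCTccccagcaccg
The extended ETS motif AGGAAG occurred 2 times in the Tie1 window, 1 time in the Apln window and 0 times in the Tek window. Of 32851 promoters of the same length, 35.4% held it. A count of 0 for it does not mean that the shorter core is absent, and the Tek window does hold TTCC. The GATA motif occurred 1 time, in the Tek window, and was held by 11.2% of promoters. Neither the FOXO motif TGTTTAC, held by 3.65% of promoters, nor the hypoxia core ACGTG, held by 19.6%, was found in the 3 windows. These matches describe letters, not binding sites.

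The 6 genes fell into 3 patterns over the vessel classes. Tek, Ptprb and Aplnr were blood vessel genes, lower in lymphatic cells than in each of the 4 blood classes, and Aplnr was also low in arteries. Tie1 was near level in all 5 classes. The ligand genes were rare and uneven: Angpt2 was highest in lymphatic cells and next in Gpihbp1/Aqp1 capillaries, while Apln was found in a few capillary cells and in 0 of 1054 lymphatic cells. UMIs were summed per class and library, and each pair of classes was compared with edgeR's quasi-likelihood test with library as a block and Benjamini-Hochberg adjustment over the 10573 genes tested, 15 class genes left out; a gene is said to rise, fall or differ where its adjusted p was under 0.05. All 6 genes passed the filter on low counts, though Apln did so on few UMIs, at most 85 in any class and library. Apln passed through the capillary classes alone, where it was highest, and its levels in the other classes would not have met the filter. Changes below are log2 fold changes, first-named class over second, ± standard error. The test blends a gene's own spread with that of all genes, which is weighted by its prior degrees of freedom. These were 46.8 for Tek, Tie1, Ptprb and Apln, 46.4 for Aplnr and 0.79 for Angpt2, so Angpt2 leaned most on its own spread.

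**Figure D1:**
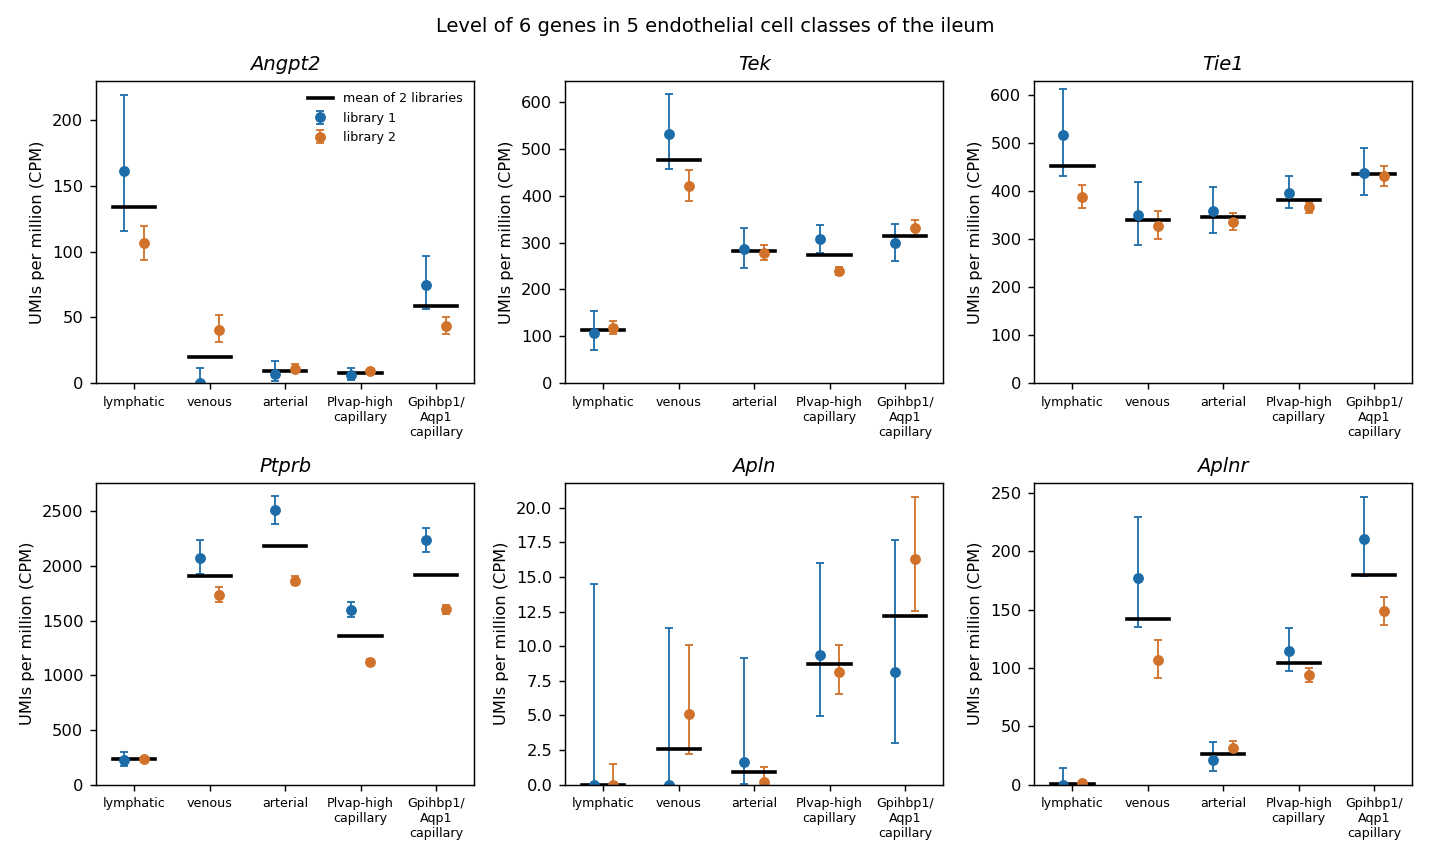
Level of each gene, in CPM, by cell class. Points are the 2 libraries with exact 95% Poisson intervals, which cover counting error only, and bars are their means. Tek, Ptprb and Aplnr are lowest in lymphatic cells in both libraries, Tie1 lies between 327 and 516 CPM everywhere, and Angpt2 is highest in lymphatic cells.

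Against so broad a background of differing genes, the number of the 6 that differed is read beside the share of all genes that did. Each bracket below gives the percent of all genes tested that differed, then the percent higher and the percent lower in the first-named class. Lymphatic cells had 0 of the 6 higher and 4 lower than venous cells (40.2%, 18.4% and 21.8%). They had 1 higher and 3 lower than arterial cells (46.1%, 21.6% and 24.4%), 1 higher and 4 lower than Plvap-high capillary cells (51.1%, 24.7% and 26.5%) and 0 higher and 4 lower than Gpihbp1/Aqp1 capillary cells (46.4%, 22.6% and 23.8%). Venous cells had 3 higher and 0 lower than arterial cells (21.6%, 11.5% and 10.1%), 3 higher and 0 lower than Plvap-high cells (22.2%, 12.1% and 10%) and 1 higher and 1 lower than Gpihbp1/Aqp1 cells (27.7%, 15.4% and 12.4%). Arterial cells had 1 higher and 2 lower than Plvap-high cells (13%, 7.59% and 5.42%) and 0 higher and 2 lower than Gpihbp1/Aqp1 cells (16.4%, 9.41% and 7.04%). Plvap-high cells had 0 higher and 3 lower than Gpihbp1/Aqp1 cells (25.2%, 13.5% and 11.6%). Class comparisons share cells, so these counts are not independent of each other. With totals alone in place of TMM scaling, the median of all genes moved by 0.22 in lymphatic against venous, 0.11 in lymphatic against Plvap-high, -0.15 in venous against arterial, -0.11 in venous against Plvap-high, -0.25 in venous against Gpihbp1/Aqp1 and -0.14 in Plvap-high against Gpihbp1/Aqp1 cells, and the changes below are relative to the TMM scale.

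**Figure D2:**
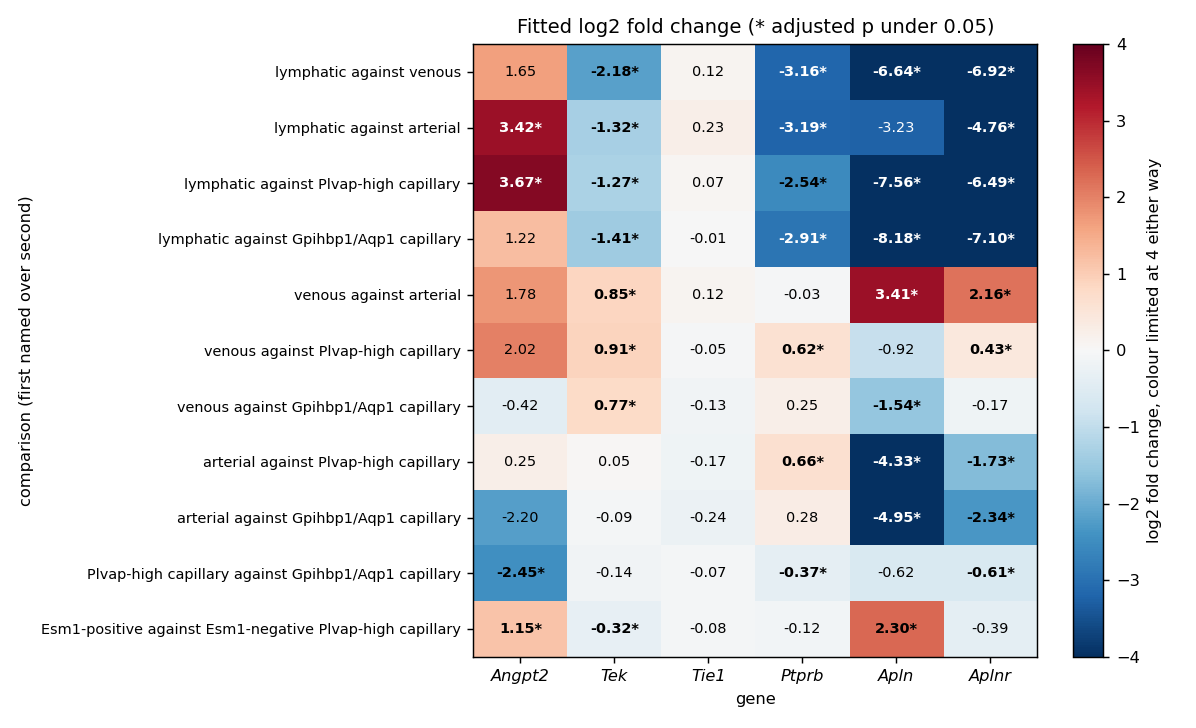
Fitted log2 fold change of each gene in each comparison, first-named class over second; an asterisk and bold type mark an adjusted p under 0.05, and colour is limited at 4 in either direction. Tie1 has no marked comparison, and the 4 lymphatic comparisons are marked and negative for Tek, Ptprb and Aplnr.

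Angpt2, the angiopoietin that endothelium itself makes, was highest in lymphatic cells. It had 161 and 106 CPM in lymphatic cells, 0 and 40.3 CPM in venous, 6.55 and 10.9 CPM in arterial, 5.75 and 8.93 CPM in Plvap-high and 74.3 and 43.2 CPM in Gpihbp1/Aqp1 capillary cells of libraries 1 and 2. In each library the lymphatic value was above all 4 blood values, and the Gpihbp1/Aqp1 value was above the other 3. Angpt2 was higher in lymphatic than in Plvap-high cells by 3.67 ± 0.58 (adjusted p = 0.00466, edgeR) and than in arterial cells by 3.42 ± 0.65 (adjusted p = 0.0100, edgeR). Between the capillary classes it was lower in Plvap-high than in Gpihbp1/Aqp1 cells, by -2.45 ± 0.60 (adjusted p = 0.0428, edgeR). The differences from venous cells (1.65 ± 0.64, adjusted p = 0.110, edgeR) and from Gpihbp1/Aqp1 cells (1.22 ± 0.52, adjusted p = 0.127, edgeR) did not pass, nor did arterial against Gpihbp1/Aqp1 cells (-2.20 ± 0.68, adjusted p = 0.119, edgeR). These 3 did pass under 5 of the other settings tried, among them with no filter on low counts and with cells that held UMIs of other cell types left out. With library 2 cut to the cell number of library 1 in each class, neither called lymphatic difference nor the capillary difference passed. In that setting the classes stayed unequal in size, and most cells of library 2 were left out. The capillary call was also lost with DESeq2 (adjusted p = 0.0879).

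The Angpt2 signal in lymphatic cells was spread over many cells, with few UMIs in each. In library 1, 26.9% of lymphatic cells had an Angpt2 UMI (exact 95% interval 17.5 to 38.2) and in library 2 18.4% (16.1 to 21.0), against 13.9% (9.67 to 19.0) and 10.9% (9.09 to 12.9) of Gpihbp1/Aqp1 cells. Median depth was lower in the lymphatic cells, at 2894 and 2145 UMIs, than in the Gpihbp1/Aqp1 cells, at 2999 and 3274 UMIs. After each cell was thinned to 1000 UMIs the shares were 10.7% and 9.55% of lymphatic cells and 4.41% and 4.94% of Gpihbp1/Aqp1 cells. As a gauge of free RNA, 1 of 37 leukocytes in library 2 (2.70%, median depth 5809 UMIs) and 0 of 27 fibroblasts (which allows up to 11.1%, median depth 6583 UMIs) had an Angpt2 UMI. The shares of arterial cells (2.04% and 4.76%) and Plvap-high cells (1.94% and 3.01%) with an Angpt2 UMI were close to that leukocyte share and could not be told from background by it. With 37 leukocytes the gauge is loose: its exact 95% interval, 0.0684 to 14.2, also covers the Gpihbp1/Aqp1 shares and the venous share of library 2 (6.37%), while both lymphatic shares lay above it. The top 2 lymphatic cells held 24.4% and 6.39% of the class's Angpt2 UMIs.

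**Figure D3:**
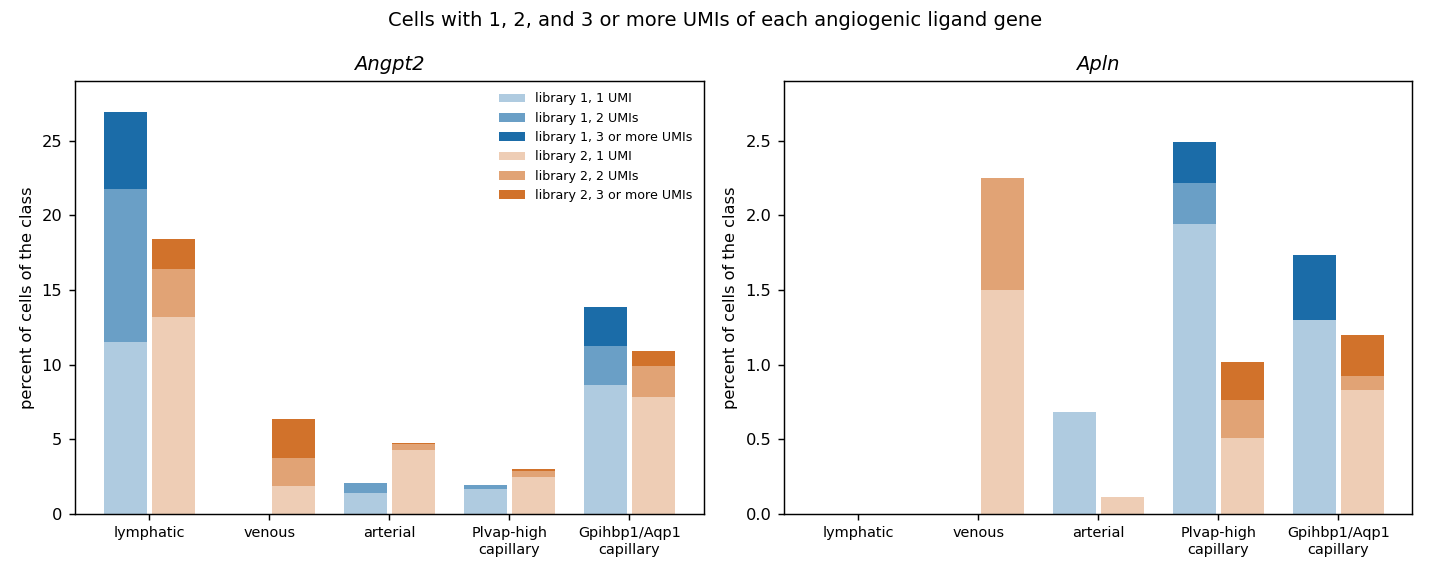
Share of cells of each class with 1, 2, and 3 or more UMIs of Angpt2 (left) and Apln (right), by library; the vertical axes of the panels differ. Angpt2 reaches 26.9% and 18.4% of lymphatic cells, while no class has Apln in more than 2.49% of its cells.

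The venous Angpt2 signal came from 1 library and few cells. All 63 UMIs were in 17 of the 267 venous cells of library 2, 7 of them with 3 or more UMIs and the highest with 12, while the 70 venous cells of library 1 had 0 UMIs, which allows up to 9.18 CPM. In those 17 cells the pericyte and smooth muscle genes summed to 2076 CPM, against 57.3 CPM in the other venous cells of that library. In Gpihbp1/Aqp1 cells the sum was also higher in cells with Angpt2 than in cells without it, at 957 and 1342 against 106 and 298 CPM. In arterial and Plvap-high cells the libraries went opposite ways. Library 2 had 2274 against 231 CPM in arterial and 884 against 104 CPM in Plvap-high cells. Library 1 had 0 against 202 CPM and 36.3 against 106 CPM in these classes, from 3 and 7 cells with Angpt2. The part of these genes in the Angpt2 level was not tested. Pericytes are themselves a source of angiopoietins, and the 25 mural cells that passed the sort in library 2 had 42.3 CPM of Angpt2 (95% Poisson interval 11.5 to 108). With cells holding 3 or more UMIs of other types left out, venous Angpt2 in library 2 was 31.8 CPM, and Gpihbp1/Aqp1 Angpt2 was 75.7 and 44.6 CPM. In lymphatic cells the same mural genes were at 83.8 and 71.2 CPM in cells with Angpt2 and at 64.5 and 45.6 CPM in cells without it, and lymphatic Angpt2 was 165 and 107 CPM once cells with UMIs of other types were left out.

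Angpt1, the activating ligand, was close to absent from blood endothelium and low in lymphatic cells. It had 15.7 and 19.2 CPM in lymphatic cells, 3.06 and 0.639 CPM in venous, 4.91 and 1.56 CPM in arterial, 0 and 0 CPM in Plvap-high and 0 and 0.763 CPM in Gpihbp1/Aqp1 cells. Angpt1 was higher in lymphatic than in venous cells by 3.85 ± 0.86 (adjusted p = 0.000237, edgeR) and than in arterial cells by 3.09 ± 0.59 (adjusted p = 1.58e-05, edgeR). The 25 mural cells of library 2 had 42.3 CPM of Angpt1, from 4 UMIs.

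Tek, the gene of the angiopoietin receptor TIE2, was highest in veins and lowest in lymphatics. It had 106 and 118 CPM in lymphatic cells, 533 and 421 CPM in venous, 286 and 279 CPM in arterial, 307 and 239 CPM in Plvap-high and 299 and 331 CPM in Gpihbp1/Aqp1 capillary cells. The lymphatic values lay below, and the venous values above, those of every other class in both libraries. Tek was lower in lymphatic than in venous cells by -2.18 ± 0.15 (adjusted p = 7.33e-18, edgeR), and than in arterial, Plvap-high and Gpihbp1/Aqp1 cells by -1.32 ± 0.15, -1.27 ± 0.14 and -1.41 ± 0.15 (largest adjusted p = 8.69e-11, edgeR). It was higher in venous than in arterial cells by 0.85 ± 0.13, than in Plvap-high cells by 0.91 ± 0.12 and than in Gpihbp1/Aqp1 cells by 0.77 ± 0.13 (largest adjusted p = 2.07e-06, edgeR). All 7 of these differences passed under every alternative that gave a test. The arterial, Plvap-high and Gpihbp1/Aqp1 levels did not differ beyond their spread in any of their 3 comparisons (log2 -0.14 to 0.05, smallest adjusted p = 0.449, edgeR).

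Most blood endothelial cells held a Tek UMI and most lymphatic cells did not. The share was 28.2% and 24.2% of lymphatic cells and 75.7% and 85.8% of venous cells, and 58.4% to 67.8% in the other classes. Thinned to 1000 UMIs a cell, it was 14.7% and 10.98% of lymphatic cells and 40.6% and 37.1% of venous cells. Among leukocytes of library 2, 1 of 37 (2.70%) had a Tek UMI, so the lymphatic share was above that seen in cells that should lack the gene.

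Tie1, the orphan partner of TIE2, was the most even of the 6. It had 516 and 387 CPM in lymphatic cells, 349 and 327 CPM in venous, 357 and 336 CPM in arterial, 396 and 365 CPM in Plvap-high and 438 and 430 CPM in Gpihbp1/Aqp1 capillary cells. The highest class mean was the lymphatic one at 452 ± 90.8 CPM (SD, n = 2) and the lowest the venous one at 338 ± 15.2 CPM (SD, n = 2). None of the 10 class comparisons passed edgeR's test; their log2 fold changes ran between -0.24 and 0.23, with standard errors of 0.11 to 0.13. With no scaling beyond the totals, 4 of them passed: lymphatic against venous at 0.35 (adjusted p = 0.0267, edgeR), lymphatic against arterial at 0.31 (adjusted p = 0.0313, edgeR), venous against Gpihbp1/Aqp1 at -0.37 (adjusted p = 0.0175, edgeR) and arterial against Gpihbp1/Aqp1 at -0.33 (adjusted p = 0.0353, edgeR). Tie1 differences of this size thus turned on how the class totals were scaled. A Tie1 UMI was found in 75.6% and 57.2% of lymphatic cells. It was found in 95.5% and 66.5% of the lymphatic cells that also had Tek, against 67.9% and 54.2% of those without Tek. The lymphatic cells with Tek were deeper, at medians of 4374.5 and 3026.5 UMIs against 2568.5 and 1952, which can raise such a share. In venous cells of library 1 the order was the opposite, at 69.8% with Tek and 82.4% without.

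Ptprb, whose product VE-PTP dephosphorylates TIE2, followed Tek in being low in lymphatic cells but not in being high in veins. It had 228 and 234 CPM in lymphatic cells, 2075 and 1738 CPM in venous, 2508 and 1862 CPM in arterial, 1599.9 and 1123.5 CPM in Plvap-high and 2233 and 1601 CPM in Gpihbp1/Aqp1 capillary cells. Every blood value was above both lymphatic values, and within each library Plvap-high cells had the lowest level of the blood classes. The lymphatic difference was -3.16 ± 0.13 from venous, -3.19 ± 0.13 from arterial, -2.54 ± 0.13 from Plvap-high and -2.91 ± 0.13 from Gpihbp1/Aqp1 cells (largest adjusted p = 2.04e-23, edgeR). Ptprb was higher than in Plvap-high cells by 0.62 ± 0.11 in venous cells (adjusted p = 1.17e-05, edgeR) and by 0.66 ± 0.11 in arterial cells (adjusted p = 5.48e-06, edgeR). It was lower in Plvap-high than in Gpihbp1/Aqp1 cells by -0.37 ± 0.11 (adjusted p = 0.00664, edgeR), a call lost with DESeq2 (adjusted p = 0.0637) and without the library block (adjusted p = 0.248, edgeR). Venous, arterial and Gpihbp1/Aqp1 levels did not differ beyond their spread (smallest adjusted p = 0.0677, edgeR). Library 1 was above library 2 in each blood class, and the library block takes up that offset. A Ptprb UMI was found in 42.3% and 39.5% of lymphatic cells and in 96.2% to 98.9% of cells in the blood classes, against 2 of 37 leukocytes of library 2 (5.41%).

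Aplnr, the apelin receptor gene, was a gene of capillaries and veins. It had 0 and 1.20 CPM in lymphatic cells, 178 and 107 CPM in venous, 21.3 and 31.7 CPM in arterial, 115 and 94.2 CPM in Plvap-high and 211 and 149 CPM in Gpihbp1/Aqp1 capillary cells. The lymphatic and arterial values did not overlap those of the veins and capillaries, and Gpihbp1/Aqp1 cells were highest in each library. In lymphatic cells 3 UMIs were counted, in 3 of 976 cells of library 2 (0.307%), which is read as background. Aplnr was lower in lymphatic than in arterial cells by -4.76 ± 0.51 (adjusted p = 2.46e-11, edgeR) and than in the other blood classes by -6.49 to -7.10 (largest adjusted p = 2.25e-20, edgeR); as the lymphatic count was 0 in library 1 and 3 in library 2, these folds depend on very few molecules, and the pooled ratio of lymphatic to Gpihbp1/Aqp1 CPM was 0.00687.

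Among the blood classes, arteries stood low for Aplnr. It was higher in venous than in arterial cells by 2.16 ± 0.20 (adjusted p = 4.75e-13, edgeR), lower in arterial than in Plvap-high cells by -1.73 ± 0.17 (adjusted p = 1.14e-11, edgeR) and lower in arterial than in Gpihbp1/Aqp1 cells by -2.34 ± 0.17 (adjusted p = 5.75e-16, edgeR). With library 2 cut to the cell numbers of library 1, these 3 arterial calls were lost (adjusted p = 0.143, 0.205 and 0.0556, edgeR). The call of lymphatic against arterial cells was lost there too (adjusted p = 0.110, edgeR). Plvap-high cells were lower than Gpihbp1/Aqp1 cells by -0.61 ± 0.13 (adjusted p = 0.000359, edgeR). That call was lost with DESeq2 (adjusted p = 0.137) and without the library block (adjusted p = 0.0559, edgeR). It was also lost with library 2 cut to the cell numbers of library 1 (adjusted p = 0.329, edgeR). The venous level was 0.43 ± 0.16 above that of Plvap-high cells (adjusted p = 0.0457, edgeR), which 9 of the alternatives took past 0.05, and it did not differ from that of Gpihbp1/Aqp1 cells (-0.17 ± 0.16, adjusted p = 0.493, edgeR). The share of cells with an Aplnr UMI was 40.0% and 27.3% in venous, 5.44% and 7.59% in arterial, 23.0% and 20.7% in Plvap-high and 31.2% and 27.0% in Gpihbp1/Aqp1 cells, and 0 of 37 leukocytes had one. Thinned to 1000 UMIs, the shares were 10.1% and 9.36% of venous, 1.40% and 2.49% of arterial, 9.63% and 7.39% of Plvap-high and 14.1% and 12.2% of Gpihbp1/Aqp1 cells, so the arterial share stayed lowest.

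Apln, the apelin gene, was the rarest of the 6 and was carried by a handful of cells. It had 0 and 0 CPM in lymphatic cells, 0 and 5.12 CPM in venous, 1.64 and 0.223 CPM in arterial, 9.35 and 8.16 CPM in Plvap-high and 8.11 and 16.3 CPM in Gpihbp1/Aqp1 capillary cells. The capillary values were above those of the other 3 classes in both libraries. In Plvap-high cells 9 of 361 and 24 of 2362 had an Apln UMI, in Gpihbp1/Aqp1 cells 4 of 231 and 13 of 1084, and in all other classes together 8 cells did, 6 of them venous cells of library 2. No Apln UMI was found in 78 and 976 lymphatic cells, which allows a share of up to 3.85% and 0.307% and a level of up to 11.8 and 1.20 CPM, nor in 37 leukocytes; 2 of 27 fibroblasts in library 2 had 1 UMI each. Single cells weighed heavily: in library 2, 1 Plvap-high cell had 27 of that class's 85 UMIs, and 1 Gpihbp1/Aqp1 cell had 43 of 64. The top 2 cells held 44.7% of the Plvap-high and 78.1% of the Gpihbp1/Aqp1 UMIs of that library. Without the top cell of each class, capillary Apln was 6.47 and 5.57 CPM in Plvap-high cells and 4.05 and 5.34 CPM in Gpihbp1/Aqp1 cells.

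Against its 0 UMIs in lymphatic cells, a fold for Apln is a lower bound, computed with 3 UMIs over both lymphatic libraries in place of 0. Apln was at least 3.89-fold lower in lymphatic than in venous cells (adjusted p = 0.0034, edgeR), at least 7.62-fold lower than in Plvap-high cells (adjusted p = 6.06e-06, edgeR) and at least 13.8-fold lower than in Gpihbp1/Aqp1 cells (adjusted p = 3.77e-07, edgeR). Without the top Apln cell of each class and library these bounds were 2.92, 5.21 and 4.72, and in library 1 alone the lymphatic limit of 11.8 CPM was above the level of each blood class. The difference from arterial cells did not pass (adjusted p = 0.336, edgeR), both classes being at or near 0. Apln was lower in arterial than in Plvap-high cells by -4.33 ± 0.73 (adjusted p = 8.43e-06, edgeR) and than in Gpihbp1/Aqp1 cells by -4.95 ± 0.71 (adjusted p = 2.4e-07, edgeR). It was also called higher in venous than in arterial cells (3.41 ± 1.07, adjusted p = 0.0150, edgeR) and lower in venous than in Gpihbp1/Aqp1 cells (-1.54 ± 0.59, adjusted p = 0.0436, edgeR). The venous and arterial call was lost with DESeq2 (adjusted p = 0.122), without the library block (adjusted p = 0.0508, edgeR) and with the highest Scrublet scores left out (adjusted p = 0.0925, edgeR), and the venous and Gpihbp1/Aqp1 call with DESeq2 (adjusted p = 0.340) and without the block (adjusted p = 0.131, edgeR). The venous signal is 8 UMIs of library 2, and in library 1 alone the venous and arterial order was the opposite, at 0 and 1 UMI. The capillary classes did not differ (Plvap-high against Gpihbp1/Aqp1 -0.62 ± 0.36, adjusted p = 0.234, edgeR). As Apln entered the tests through its capillary counts, the p-values of other classes against capillary cells carry that selection. Once the top Apln cell of each class and library was left out, Apln no longer met the count filter in the class comparisons and had no test there. Where cells of 2 classes were kept, the 3 and 96 cells reaching both the lymphatic and the blood threshold counted as lymphatic. All lymphatic Apln UMIs of that setting were in those cells, and the Plvap-high difference was lost (-1.14, adjusted p = 0.0593, edgeR).

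Esm1, a secreted proteoglycan gene and a marker of endothelial tip cells, splits the Plvap-high capillary class, and the ligand genes were higher on its positive side. Cells with at least 2 Esm1 UMIs, 76 and 630 in libraries 1 and 2, were set against cells with 0, 223 and 1301. Apln had 19.5 and 19.4 CPM in Esm1-positive cells, against 6.43 and 3.53 CPM in Esm1-negative cells. Angpt2 had 13.9 and 15.3 CPM in Esm1-positive cells, against 3.86 and 7.24 CPM in Esm1-negative cells. The groups did not overlap for either ligand gene, though library 1 rests on 7 against 5 UMIs of Apln and 5 against 3 of Angpt2, and Angpt2 is near background in this class.

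In the same test, 3 of the 6 genes differed between Esm1-positive and Esm1-negative cells, where 3.51% of the 9877 genes tested did: 2 were higher, against 1.9% of all genes, and 1 lower, against 1.61%. Apln was higher in Esm1-positive cells by 2.30 ± 0.36 (adjusted p = 1.93e-08, edgeR) and Angpt2 by 1.15 ± 0.34 (adjusted p = 0.0250, edgeR), while Tek was lower by -0.32 ± 0.09 (adjusted p = 0.0202, edgeR). The Esm1-negative cells alone would not have brought Apln or Angpt2 through the count filter. Both thus entered the test through the side where they are high, and their calls beside the share of all genes carry that selection. Tek had 270 and 207 CPM in Esm1-positive and 332 and 261 CPM in Esm1-negative cells, so the library ranges overlapped while both libraries moved the same way. Aplnr had 100 and 75.7 CPM in Esm1-positive and 130 and 99.9 CPM in Esm1-negative cells (-0.39 ± 0.13, adjusted p = 0.0675, edgeR), and Tie1 (-0.08 ± 0.08) and Ptprb (-0.12 ± 0.06) did not pass. Without the top Apln cell on each side Apln still passed (1.92, adjusted p = 0.00107, edgeR) and Angpt2 did not (1.07, adjusted p = 0.0520, edgeR). Angpt2 was also lost with raised class thresholds (0.82, adjusted p = 0.343, edgeR) and with no count filter (1.14, adjusted p = 0.0528, edgeR). Tek was lost with library 2 cut to the cell numbers of library 1 (-0.33, adjusted p = 0.371, edgeR). Esm1-positive cells were deeper, at medians of 4656 and 4752.5 UMIs, than Esm1-negative cells, at 3327 and 3871 UMIs. With cells thinned to 1000 UMIs, Apln and Angpt2 fell under the count filter and Tek did not pass (-0.34, adjusted p = 0.476, edgeR). The fit has 1 residual degree of freedom. For each of the 6 genes it took the spread from the trend over all genes, with infinite prior degrees of freedom. These p-values thus do not measure a gene's own spread between the libraries. With DESeq2 none of the 6 was called, its adjusted p being undefined for Apln and Angpt2, and without the library block Apln alone was.

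**Figure D4:**
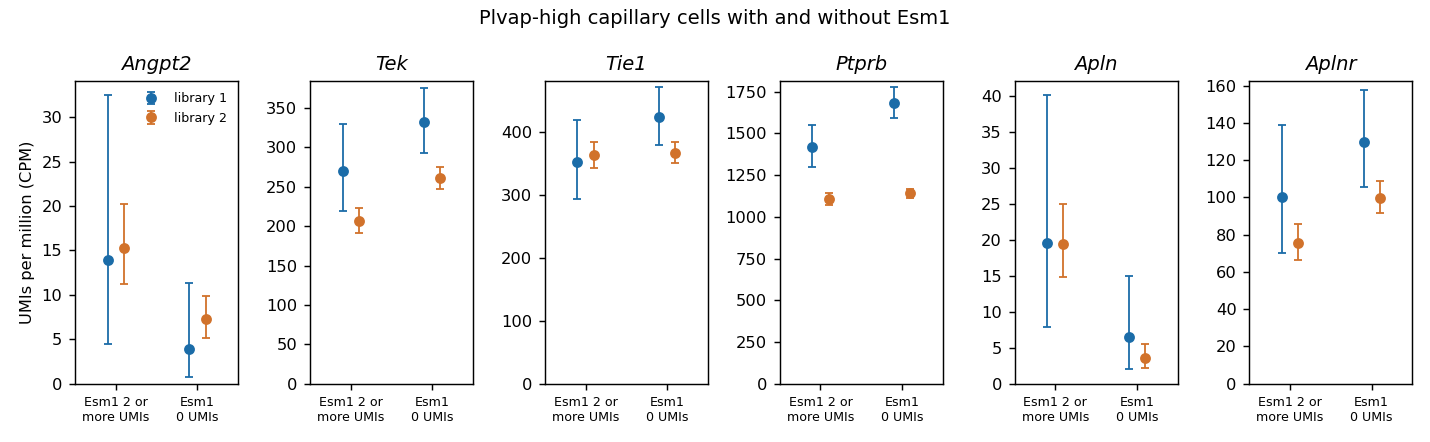
Level of each gene in Plvap-high capillary cells with at least 2 Esm1 UMIs (left in each panel) and with 0 (right), by library, with exact 95% Poisson intervals. Apln is at 19.5 and 19.4 CPM in Esm1-positive cells and at 6.43 and 3.53 CPM in Esm1-negative cells.

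The 13 and 37 capillary cells with an Apln UMI, taken from both capillary classes, were set against the 579 and 3409 without one for the tip cell list, as a description with no test. Of the 18 genes 11 were higher in cells with Apln in both libraries, 1 was lower in both and 6 went opposite ways in the libraries. The share of all genes that did so was not computed, so these counts are not read as a trait of the list. Angpt2 had 238 and 106.5 CPM in cells with Apln, against 24.5 and 17.0 CPM in cells without it, and was detected in 3 of 13 (23.1%) and 10 of 37 (27.0%) of them, against 6.22% and 5.25%. Esm1 had 873 and 445 CPM in cells with Apln, against 210.1 and 238 CPM in cells without it. An Esm1 UMI was found in 46.2% and 37.8% of cells with Apln, against 24.9% and 32.8% of cells without it. The intervals of the former, 19.2 to 74.9 and 22.5 to 55.2, cover the latter. The basement membrane gene Col4a1 had 3292 and 2546 CPM in cells with Apln, against 1564 and 1516 CPM in cells without it, and Pdgfb, which recruits pericytes, had 357 and 412 CPM, against 189 and 219 CPM. Adm, which encodes the vascular peptide adrenomedullin, had 79.3 and 67.8 CPM, from 4 and 14 UMIs, against 29.3 and 23.7 CPM. Sox17, a transcription factor gene, was the 1 lower in both, at 258 and 232 CPM in cells with Apln, against 363 and 430 CPM. Nid2, Plaur, Igfbp3, Nrp1, Unc5b and Pgf were the 6 that went opposite ways. Pgf, a placental growth factor gene, had 0 and 72.6 CPM in cells with Apln, against 1.44 and 1.27 CPM, its 15 UMIs coming from 3 cells of library 2. Aplnr showed no such pattern: it was found in 3 of 13 and 12 of 37 cells with Apln (23.1% and 32.4%), against 26.3% and 22.6% of cells without it. In library 2 the classes went opposite ways, with Aplnr in 11 of 24 (45.8%) Plvap-high cells with Apln, against 20.4% of those without, and in 1 of 13 (7.69%) Gpihbp1/Aqp1 cells with Apln, against 27.3%. Cells with Apln were deeper, at medians of 3599 and 5252 UMIs, than those without, at 3345 and 3842, which can raise a share of cells with a UMI. Whether the CPM values also vary with depth was not tested.

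Of the cells with Angpt2, most Gpihbp1/Aqp1 cells and a minority of lymphatic cells also held a UMI of its receptor gene. Tek was found in 19 of 32 (59.4%) and 72 of 118 (61.0%) Gpihbp1/Aqp1 cells with Angpt2, against 59.3% and 66.6% of those without it. In lymphatic cells Tek was found in 8 of 21 (38.1%) and 41 of 180 (22.8%) cells with Angpt2, against 24.6% and 24.5% of cells without it. In both classes and libraries the share in cells without Angpt2 lay inside the counting interval of the share in cells with it, so no difference was detectable at this depth.

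Within classes, cells were split further by genes outside the axis; these are values per library with no test. In Gpihbp1/Aqp1 cells, those with at least 2 UMIs of Cd300lg and Aqp7, genes of capillaries that handle lipid, had 240.0 and 161 CPM of Aplnr, against 120 and 89.6 CPM in those with 0. Their Apln was 9.998 and 21.3 CPM, against 0 and 0 CPM, although 42 and 189 cells with 0 allow up to 31.7 and 6.61 CPM (exact 95% upper limits). Of their 60 Apln UMIs in library 2, 43 were in 1 cell, and without the top cell of each library their Apln was 3.999 and 6.04 CPM, below those limits. In arterial cells, those with at least 2 UMIs of Fn1 and S100a4 had 4.48 and 11.9 CPM of Aplnr, against 37.1 and 45.1 CPM in those with 0, with intervals of 0.113 to 24.9 and 7.39 to 18.2 CPM against 19.2 to 64.8 and 36.3 to 55.5 CPM. Venous cells with at least 2 UMIs of Sele, the inducible adhesion gene E-selectin, had 501 and 392 CPM of Tek, against 556 and 477 CPM in those with 0. Lymphatic cells with at least 2 UMIs of the interferon-inducible genes Gbp2 and Gbp4 had 218 and 93.2 CPM of Angpt2, against 109.8 and 114 CPM in those with 0, so the libraries went opposite ways. Tie1 stayed between 308 and 618 CPM in all of these splits.

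Of the other genes of the angiopoietin pathway, 15 of 19 were abundant enough to test; Angpt4, Lect2, Dok2 and Grb7 were not. Lymphatic cells had 2 higher and 5 lower than venous cells, 4 higher and 8 lower than both arterial and Plvap-high cells and 3 higher and 9 lower than Gpihbp1/Aqp1 cells. Of all genes, 18.4% to 24.7% were higher and 21.8% to 26.5% lower in these comparisons. The list medians were -0.19, -0.54, -0.50 and -0.40 on the log2 scale, beside medians of all genes of 0.03, -0.00, 0.02 and -0.01. Nos3, the endothelial nitric oxide synthase gene, was at 27.6 and 35.6 CPM in lymphatic cells, against 264 and 253 CPM in arterial cells (-3.01 ± 0.18, adjusted p = 2.77e-20, edgeR). Cdh5, which encodes VE-cadherin, was at 508 and 524 CPM in lymphatic cells, against 1714 and 1524 CPM in Gpihbp1/Aqp1 cells (-1.61 ± 0.12, adjusted p = 4.52e-17, edgeR), and was lower in Plvap-high than in Gpihbp1/Aqp1 cells too (-0.90 ± 0.11, adjusted p = 1.01e-09, edgeR). Itga5, an integrin subunit gene, was highest in veins, at 138 and 162 CPM, against 76.9 and 92.4 CPM in Plvap-high cells (0.94 ± 0.15, adjusted p = 2.38e-06, edgeR). Grb14, an adaptor gene, set the capillary classes apart, at 33.1 and 23.5 CPM in Plvap-high and 6.76 and 5.08 CPM in Gpihbp1/Aqp1 cells (2.36 ± 0.31, adjusted p = 1.3e-08, edgeR). Between the blood classes 3 to 6 of the 15 differed in each comparison, where 13% to 27.7% of all genes did.

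Of the other genes of apelin processing and signalling, 13 of 16 were tested. Apela, the gene of another APJ ligand, and Mme, a protease gene, were among those under the count filter in this endothelium. Lymphatic cells had 9 lower and 1 higher than venous cells and 6 lower than each of the other classes, with 2, 0 and 1 higher, where 21.8% to 26.5% of all genes were lower and 18.4% to 24.7% higher. The list medians were -0.69 against venous, -0.21 against arterial, -0.33 against Plvap-high and -0.16 against Gpihbp1/Aqp1 cells, beside 0.03, -0.00, 0.02 and -0.01 for all genes. Klf2 and Klf4, the flow-responsive transcription factor genes, were lower in lymphatic cells in all 4 comparisons; Klf2 was at 307 and 243 CPM in lymphatic cells, against 1177 and 1424 CPM in arterial cells (-2.45 ± 0.29, adjusted p = 0.000375, edgeR). Arrb1, whose product arrestin binds activated receptors, was at 404 and 294 CPM in venous cells, 235 and 190 CPM in Plvap-high cells and 36.5 and 43.2 CPM in Gpihbp1/Aqp1 cells, and differed between venous and Gpihbp1/Aqp1 cells by 3.19 ± 0.16 (adjusted p = 7.45e-23, edgeR) and between Plvap-high and Gpihbp1/Aqp1 cells by 2.40 ± 0.15 (adjusted p = 5.55e-19, edgeR). Arrb1 thus ran opposite to Aplnr between the capillary classes. Mef2c, a transcription factor gene, was higher in Plvap-high than in Gpihbp1/Aqp1 cells by 1.06 ± 0.11 (adjusted p = 2.53e-11, edgeR). Of the 13 genes 4 were higher and 0 lower in Plvap-high than in Gpihbp1/Aqp1 cells, beside 13.5% and 11.6% of all genes.

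All 18 of the other tip cell genes were tested, and they were genes of blood capillaries and arteries more than of veins or lymphatics. Venous cells had 1 higher and 15 lower than Plvap-high cells (list median -1.90, against -0.02 for all genes), beside 12.1% and 10% of all genes. Lymphatic cells had 2 higher and 15 lower than Plvap-high cells (list median -1.66, against 0.02), beside 24.7% and 26.5% of all genes. The capillary classes divided the list, with 7 higher and 5 lower in Plvap-high than in Gpihbp1/Aqp1 cells (median 0.44, against -0.01), beside 13.5% and 11.6% of all genes. On the Plvap-high side were Esm1, at 334 and 318 CPM against 21.6 and 37.9 CPM in Gpihbp1/Aqp1 cells (3.37 ± 0.19, adjusted p = 1.6e-13, edgeR), and the basement membrane genes Nid2 (2.15 ± 0.17, adjusted p = 2.29e-14, edgeR) and Lamb1 (1.71 ± 0.13, adjusted p = 5.82e-16, edgeR). On the Gpihbp1/Aqp1 side, where Angpt2 was also higher, were Adm, at 11.5 and 16.3 CPM in Plvap-high and 66.2 and 45.5 CPM in Gpihbp1/Aqp1 cells (-1.60 ± 0.23, adjusted p = 1.5e-07, edgeR), and Trp53i11 (-1.26 ± 0.14, adjusted p = 1.05e-09, edgeR). The list did not move as a block, and Pgf was nearly confined to lymphatic cells, at 106 and 111 CPM, against 0 and 1.15 CPM in Plvap-high cells (6.62 ± 0.32, adjusted p = 1.17e-24, edgeR). In Esm1-positive against Esm1-negative cells 5 of 15 tested genes were higher and 1 lower, beside 1.9% and 1.61% of all genes. Nrp1, a co-receptor of VEGF, was at 2104 and 2107 CPM in Esm1-positive and 1416.5 and 1506 CPM in Esm1-negative cells (0.52 ± 0.06, adjusted p = 1.34e-15, edgeR). Dll4, the Notch ligand gene of tip cells, was higher by 0.38 ± 0.08 (adjusted p = 0.000492, edgeR).

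**Figure D5:**
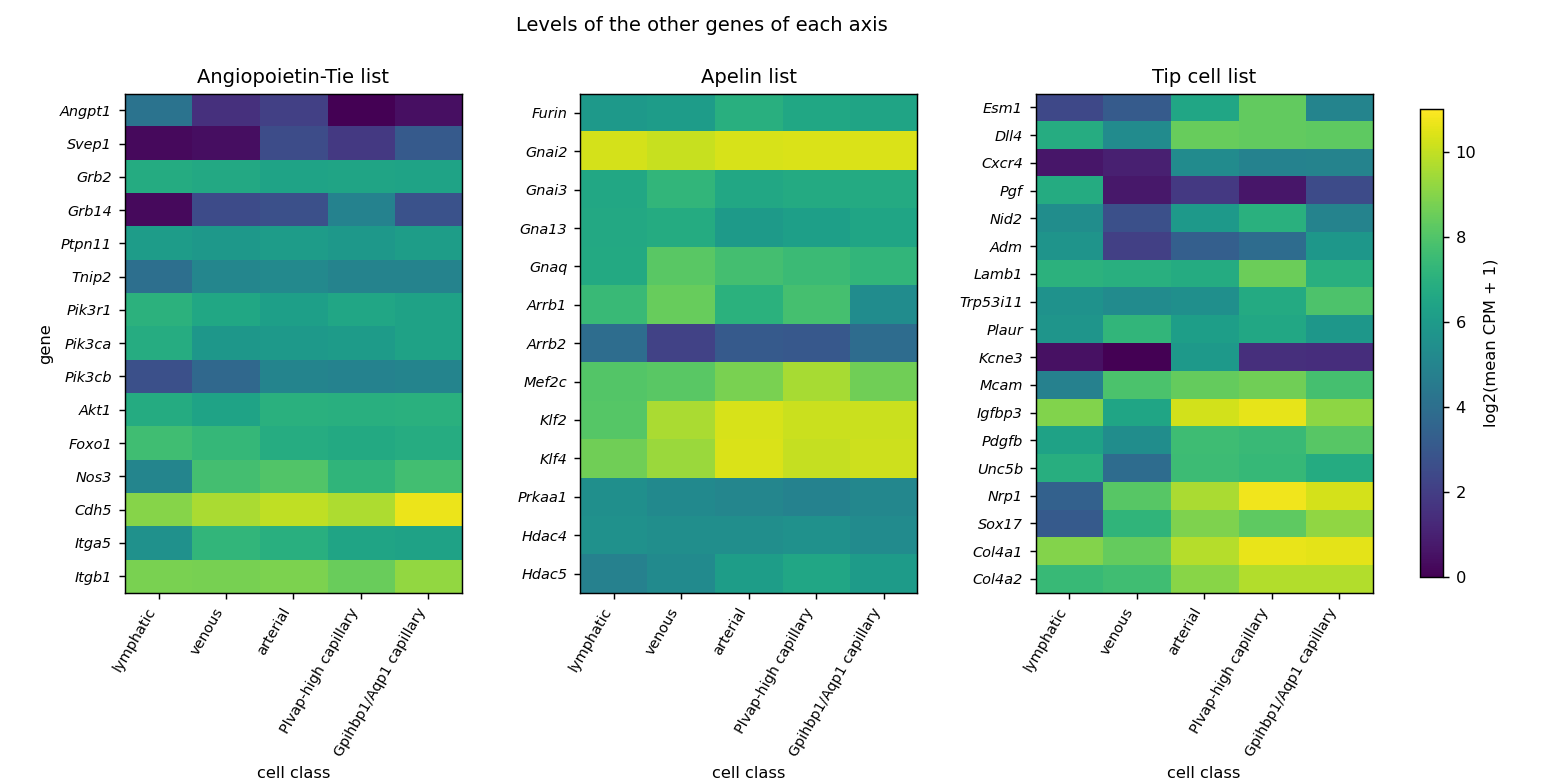
Mean level over the 2 libraries, as log2(CPM + 1), of the other genes of the angiopoietin, apelin and tip cell lists that were abundant enough to test, in the 5 classes. Angpt1 and Pgf are brightest in the lymphatic column, Nrp1 and Sox17 are dark there, and Esm1 is brightest in Plvap-high capillary cells.

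The genes whose pattern was most like that of each of the 6 were ranked by Pearson correlation of log2(CPM + 1) over the 10 sums of 5 classes and 2 libraries, among 6737 genes of at least 20 CPM on average (6738 for Apln). The sums share libraries and class totals, so the correlations are a description. Nearest to Tek were Ddx3x, Dnm3, Vwf, Parp14 and Cygb (r = 0.97 to 0.98), all highest in venous and lowest in lymphatic cells; Vwf averaged 10.3, 1273, 375, 182 and 224 CPM in lymphatic, venous, arterial, Plvap-high and Gpihbp1/Aqp1 cells. Nearest to Ptprb were Arid5b, Mecom, Syt7, Cdkn1a and Arid5a (r = 0.98 to 0.99), and nearest to Aplnr were Neurl1b, Car8, Gm32688, Prkch and Rbm18 (r = 0.97 to 0.98). Car8 averaged 1.20, 82.1, 38.0, 87.98 and 99.4 CPM over the same 5 classes. Those nearest to Tie1 (Nudt13, Uqcc3, Ube2r2, Dip2a and Dcaf10), to Angpt2 (Mfsd14b, Hpf1, Chm, Creb3 and Mcur1) and to Apln (Colgalt2, Tspan15, Inpp5a, Shank3 and Jak3) reached r = 0.93 to 0.94, 0.94 and 0.86 to 0.91, in that order of genes.

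In order of mean level, neighbouring classes often could not be told apart. For Tek the order was venous, Gpihbp1/Aqp1, arterial, Plvap-high and lymphatic, and the first and the last steps passed edgeR's test. For Ptprb it was arterial, Gpihbp1/Aqp1, venous, Plvap-high and lymphatic, and the steps down to Plvap-high and to lymphatic passed. For Aplnr it was Gpihbp1/Aqp1, venous, Plvap-high, arterial and lymphatic, with every step but the first passing. For Angpt2 (lymphatic, Gpihbp1/Aqp1, venous, arterial, Plvap-high) no step between neighbours passed, only the wider differences given above, and for Apln (Gpihbp1/Aqp1, Plvap-high, venous, arterial, lymphatic) the step between venous and arterial cells did. For Tie1 (lymphatic, Gpihbp1/Aqp1, Plvap-high, arterial, venous) no step passed.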

How the data were processed

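UMI counts were measured in 2 libraries of sorted mouse ileum endothelial cells (Chromium 3' v3, per the labels' protocols). The deposited values are raw UMI counts per gene and cell barcode; bcl2fastq 2.2, Cell Ranger 3.1.0 and build mm10 are named in the submitters' processing notes, and no source used here gives the annotation used for counting. A cell was kept with 500 or more genes and no more than 15% of its UMIs mitochondrial (978 and 6067 cells, median 3371 and 3814 UMIs), and 887 and 5572 fell in the 5 classes. Scrublet called 4 and 5 cells, too few to have worked, so no caller was used; cells reaching the thresholds of 2 classes were left out. Counts were summed per class and library and tested with edgeR 4.0.16 (quasi-likelihood, robust, TMM, filterByExpr with a minimum count of 10, library as a block) in R 4.3.3. The block was used because classes of a library come from 1 sample. DESeq2 1.42.0 was an alternative. Shares carry exact Clopper-Pearson intervals and CPM exact Poisson intervals at 95%, which cover counting error only; a count of 0 allows up to 3 counts. Mural cells, fibroblasts and leukocytes were cells outside the classes with at least 5 UMIs of that type's markers. On simulated counts for arterial against Plvap-high cells, 59.3% of 86 genes changed 1 log2 unit and 97.8% of 90 changed 2 log2 units were recovered, with 10 false calls. For the Esm1 comparison 42.9% and 95.9% of 98 each were, with 4 false calls. The simulation gave all classes a common mean profile and every gene the same fixed spread, and left genes of few counts unchanged. It therefore does not give the error rate of the real tests. The genes, lists and tests were chosen with earlier results of these data known. Genes named beside the 6 are those that passed, up to 6 of each list in a comparison by adjusted p, those not tested, and the 5 most alike; the tip cell genes described in cells with Apln, and the venous cells with Angpt2, were picked after their values were seen.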

Additional observations from a re-analysis of the deposited data

How the results depend on the processing

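Of the 66 values of the 6 genes (6 genes in 11 comparisons), DESeq2 size factors in place of TMM changed no call and no direction, and leaving out cells with UMIs of other types, an alternative chosen after seeing the data, changed no direction and added 3 calls. The class differences of Tek, and those of Ptprb between lymphatic and blood classes, were called under every alternative with a test. Fits without the replicate block called fewer genes: 18 in the Esm1 comparison, 1412 in Plvap-high against Gpihbp1/Aqp1, 893 in arterial against Gpihbp1/Aqp1, 643 in arterial against Plvap-high, 1483 in venous against Plvap-high and 1476 in venous against arterial cells, with 1 of the 6 genes called in the Esm1 comparison, in Plvap-high against Gpihbp1/Aqp1 and in venous against Gpihbp1/Aqp1 cells. DESeq2 with the block called 27, 1338, 882, 587, 1439 and 1371 genes in the same 6 comparisons and 1884 in venous against Gpihbp1/Aqp1 cells, and 0, 0 and 1 of the 6 genes in the same 3 comparisons. Thinning cells to 1000 UMIs left 97 genes in the Esm1 comparison, 1481 in Plvap-high against Gpihbp1/Aqp1, 987 in arterial against Gpihbp1/Aqp1, 639 in arterial against Plvap-high, 1439, 1078 and 988 in venous against Gpihbp1/Aqp1, Plvap-high and arterial, and 2952, 3205, 2819 and 2183 in lymphatic against Gpihbp1/Aqp1, Plvap-high, arterial and venous cells; of the 6 genes, 0 were called in the Esm1 comparison and 1 in venous against Gpihbp1/Aqp1 cells. Cutting library 2 to the cell number of library 1 in each class left 136, 1683, 1071 and 791 genes in the Esm1, capillary and 2 arterial comparisons. It left 2794, 3088, 2765 and 2471 in the lymphatic ones, in the same order. Of the 6 genes, 0 were then called in arterial against Gpihbp1/Aqp1 cells. There was 1 each in the Esm1 comparison, Plvap-high against Gpihbp1/Aqp1, arterial against Plvap-high, venous against Gpihbp1/Aqp1 and venous against arterial cells. There were 2 in lymphatic against arterial and 3 in lymphatic against Plvap-high cells. In venous against Gpihbp1/Aqp1 cells 4 of the 6 were called with no scaling and with cells of 2 classes kept, and 1 without the top Apln cells, also chosen after seeing the data; in arterial against Gpihbp1/Aqp1 cells 4 were with raised class thresholds and 1 without the top Apln cells. Without cells holding UMIs of other types, 222 genes were called in the Esm1 comparison.

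Among the 36 values called, directions reversed for Apln alone; of the 30 not called, 8 had the opposite sign in 1 library or both, Angpt2 among them in venous against arterial (1.78 in both libraries, -2.92 in library 1 alone) and venous against Plvap-high cells (2.02 and -2.76). With cells of 2 classes kept, Apln was 0.35 in lymphatic against venous (adjusted p = 0.731, edgeR) and 3.21 in lymphatic against arterial cells (adjusted p = 0.00651, edgeR), a difference not called with those cells left out. That setting counts the 3 and 96 cells reaching both the lymphatic and the blood threshold as lymphatic, and all its lymphatic Apln UMIs are in those cells. With 1 library left out, Apln ran from -2.61 without replicate 1 to 0 without replicate 2 in lymphatic against venous cells. In venous against arterial cells it ran from 2.32 without replicate 1 to -1.40 without replicate 2. The cause of the difference between libraries was not tested. Leaving out a library leaves no residual degrees of freedom, so it gave values and no counts. With no scaling the share of called genes that were higher was 60.9% in place of 45.8% in lymphatic against venous, 37.5% for 53.3% in venous against arterial, 42.5% for 54.8% in venous against Plvap-high, 33.0% for 55.4% in venous against Gpihbp1/Aqp1, 45.2% for 57.2% in arterial against Gpihbp1/Aqp1 and 36.03% for 53.8% in Plvap-high against Gpihbp1/Aqp1 cells. Few UMIs limit Apln and, outside lymphatic and Gpihbp1/Aqp1 cells, Angpt2.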
